A study of Homo sapiens with 8 samples.

Results

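The unfolded protein sensors and the genes of endoplasmic reticulum-associated degradation (ERAD) were followed in A549 cells, a line from a human lung adenocarcinoma. The 10 genes were fixed by name as ATF6, ERN1, EIF2AK3, XBP1, DNAJB9, HERPUD1, SEL1L, SYVN1, DERL1 and EDEM1. Each matched 1 of the 58302 genes of the count table through its GENCODE 44 symbol. The cells had been transfected with an siRNA against APEX1, the gene of the base excision repair enzyme APE1, or with a scramble control siRNA, and were collected 72 h later. The labels call the groups siAPEX1 and siCTRL, with 4 libraries each. The study calls its replicates biological, and neither its methods nor the labels say whether each was a transfection of its own, so a p-value measures the spread between these libraries. Both groups went through the same transfection, and 1 siRNA and 1 scramble sequence stand for the 2 conditions. The library kit was one for small RNA, in which polyA tailing and template switching add the ends, and the authors adapted it to read longer transcripts as well.

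The endoplasmic reticulum folds secreted and membrane proteins, and 3 sensors in its membrane report when unfolded protein builds up. IRE1, encoded by ERN1, cuts an intron out of the XBP1 mRNA so that an active transcription factor is made. ATF6 is itself a transcription factor, held in the membrane until it moves to the Golgi and is cut free by proteases. PERK, encoded by EIF2AK3, phosphorylates eIF2α, which lowers translation overall and favours that of ATF4. XBP1 and ATF6 raise overlapping sets of genes. Chaperones of the lumen are best known as ATF6 outputs, and many genes of ERAD and of secretion as XBP1 outputs. ERAD takes misfolded proteins out of the reticulum for the proteasome, through a membrane complex of the ubiquitin ligase SYVN1 (HRD1), its partner SEL1L, the scaffold HERPUD1 and the channel protein DERL1. Counts per gene do not separate spliced from unspliced XBP1 and do not measure cleavage of ATF6, so the values below are mRNA levels only.

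The level of each gene is given in CPM, the counts of the gene per 1000000 counts of the library, after scaling with edgeR's TMM factors. Differences were tested with edgeR's quasi-likelihood test and Benjamini-Hochberg adjustment over 5368 genes, and a gene was called at an adjusted p of at most 0.05. A fold change is siAPEX1 over siCTRL, as a log2 value with its standard error (SE). CPM are shares of a library, so a change in RNA per cell cannot be told apart from a change in its make-up.

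APEX1 (ENSG00000100823) had 51, 61, 64 and 47 counts in the siCTRL libraries and 21150, 19470, 27916 and 20767 counts in the libraries labelled siAPEX1. On its face this goes against the label, although the study reports by western blot that the APE1 protein was silenced in A549 cells. The kit also reads small RNA, and counts per gene do not tell reads of an siRNA from reads of the mRNA. The source of these counts was not tested, so they are not read as an mRNA level. Every direction below is that of the libraries as labelled. Between 1348386 and 1949886 reads per library fell on genes, and every library labelled siAPEX1 was smaller than every siCTRL library, so library size and label cannot be told apart. Protein-coding genes, with the APEX1 counts included, held 20.5% to 21.7% of the counts in the siCTRL libraries and 16.9% to 18.1% under siAPEX1. The 10 genes together made up 1165 to 1310 of each 1000000 protein-coding counts (APEX1 left out) in siCTRL and 902 to 1027 under siAPEX1. The A549 marker list was present, with 8 of its 9 genes counted and sums from 1030 to 1234 CPM against 832 to 914 CPM. NKX2-1 had 0 counts in each library. Within it the epithelial keratins KRT7, KRT8, KRT18 and KRT19 and the quinone reductase gene NQO1 fell, and the aldo-keto reductase genes AKR1B10 and AKR1C2 rose. Of 10 markers of blood, endothelial, stromal and liver cells, 8 had any count, CD3E and PECAM1 had none, and their sum lay between 5.53 and 12.7 CPM against 6.59 and 11.4 CPM. The part of these shifts in the results below was not tested.

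In outline, 5 of the 10 genes fell, namely ATF6, HERPUD1, SEL1L, DERL1 and EDEM1. XBP1, ERN1, DNAJB9 and SYVN1 did not pass the test, EIF2AK3 had too few counts to be tested, and none rose (0 at an unadjusted p under 0.05 in edgeR and 0 in DESeq2). Over all genes tested, 31.8% were called, 15.8% lower and 15.9% higher, and among protein-coding genes 16% were lower and 12.5% higher. The filter on low counts asks for about 6.14 CPM in 4 libraries. ATF6, ERN1, DERL1 and EDEM1 reached it in all 4 libraries of siCTRL but not in all 4 of siAPEX1, so they entered the test through the group in which they were higher, and the count of 5 among the 9 tested is no support on its own. When the filter was lowered to 1 count in all, the 10 genes each had a value and the same 5 were called. For the genes called, all 4 libraries labelled siAPEX1 lay below all 4 siCTRL libraries, an arrangement that 14.9% of the genes tested showed.

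**Figure D1:**
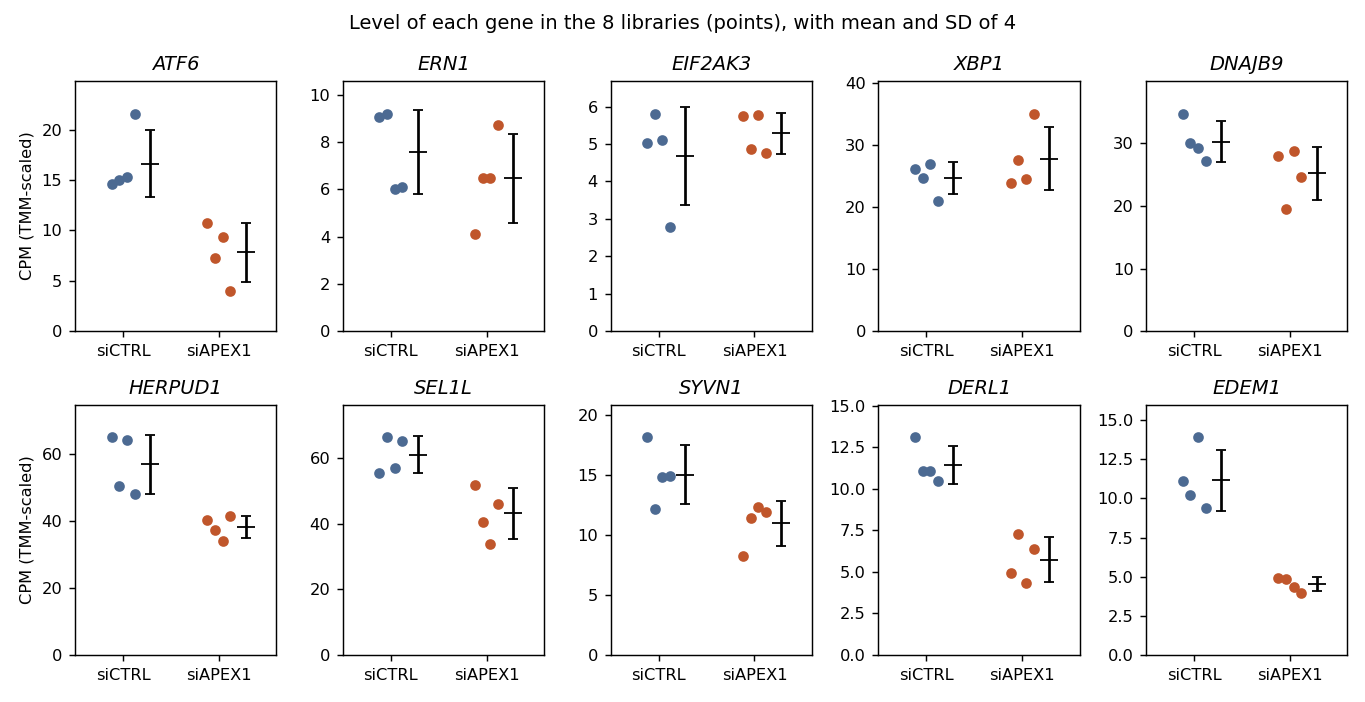
TMM-scaled CPM (y axis, from 0, its own scale in each panel) of the 10 genes in the 4 siCTRL and 4 siAPEX1 libraries, shown as points with the mean and SD of each group. The groups are apart for ATF6, HERPUD1, SEL1L, DERL1 and EDEM1 and overlap for ERN1, EIF2AK3, XBP1, DNAJB9 and SYVN1.

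Of the sensors, only ATF6 passed the test. ATF6 (ENSG00000118217, chromosome 1 from 161766298 to 161977574, plus strand, GRCh38) stood at 14.6, 15, 15.3 and 21.6 CPM in the siCTRL libraries and at 10.7, 7.30, 9.37 and 3.97 CPM under siAPEX1. Every library labelled siAPEX1 lay below every siCTRL library, and the fourth replicate was the highest of one group and the lowest of the other. The means were 16.6 ± 3.32 and 7.84 ± 2.93 CPM (SD, n = 4 each). The log2 fold change of ATF6 was −1.06 (SE 0.254, 95% interval −1.57 to −0.55, adjusted p = 0.000833 in edgeR). Of all genes tested, 4.88% had a lower log2 fold change. The counts were small, from 29 to 39 against 5 to 13. Without siCTRL replicate 4 the value was −0.92 and without siAPEX1 replicate 4 it was −0.82, with adjusted p of 0.00537 and 0.0149.

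ERN1 (ENSG00000178607, chromosome 17 from 64039080 to 64130819, minus strand), the gene of IRE1, had 18, 19, 13 and 11 counts in siCTRL and 5, 8, 9 and 11 under siAPEX1. On the scale of CPM the groups overlapped, at 7.59 ± 1.77 and 6.46 ± 1.89 (SD, n = 4 each). Its log2 fold change was −0.23 (SE 0.308, adjusted p = 0.617 in edgeR). The 95% interval runs from −0.85 to 0.39, which includes the −0.58 found for HERPUD1, so a difference of that size is not excluded at this depth.

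EIF2AK3 (ENSG00000172071, chromosome 2 from 88556741 to 88691518, minus strand), the gene of PERK, had 10, 12, 11 and 5 counts against 7, 6, 8 and 6. After scaling, this gave 4.68 ± 1.32 and 5.29 ± 0.549 CPM (SD, n = 4 each), with overlapping groups (two-sided exact permutation test, p = 0.629, unadjusted). The smallest p that 4 against 4 libraries can give is 0.0286. In the fit on all genes of at least 1 count, the log2 fold change of EIF2AK3 was 0.07 with a 95% interval from −0.68 to 0.82. The difference between ATF6 and the other sensors was not tested as such.

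Of the 9 genes tested, XBP1 alone had a log2 fold change above 0. XBP1 (ENSG00000100219, chromosome 22 from 28794555 to 28800597, minus strand) stood at 26.1, 24.7, 26.9 and 21.0 CPM in the siCTRL libraries and at 23.9, 27.6, 24.5 and 35.0 CPM under siAPEX1. The groups overlapped, and the fourth replicate was again at both ends, this time lowest in siCTRL and highest under siAPEX1. The log2 fold change of XBP1 was 0.16 (SE 0.166, adjusted p = 0.510 in edgeR), with a 95% interval from −0.17 to 0.49. That interval leaves out a fall as deep as the −0.58 of HERPUD1. With library size only as the scaling the sign turned, to −0.18, but that scaling moved the median of all genes to −0.34, and XBP1 stayed above this median.

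DNAJB9 encodes ERdj4, a cochaperone of BiP that is induced mainly through XBP1. DNAJB9 (ENSG00000128590, chromosome 7 from 108569867 to 108574850, plus strand) had 69, 62, 63 and 49 counts in siCTRL and 34, 24, 40 and 31 under siAPEX1. After scaling the groups overlapped, at 30.3 ± 3.20 and 25.2 ± 4.25 CPM (SD, n = 4 each), with a log2 fold change of −0.26 (SE 0.162, 95% interval −0.58 to 0.07, adjusted p = 0.233 in edgeR). Under library size only DNAJB9 was called lower, at −0.60 with an adjusted p of 0.00203 in edgeR.

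EDEM1 had the largest fall of the 10 genes. It encodes a lectin-like protein that hands misfolded glycoproteins to ERAD and is a known XBP1 target. EDEM1 (ENSG00000134109, chromosome 3 from 5187646 to 5219958, plus strand) had 22, 21, 30 and 17 counts in siCTRL and 6, 6, 6 and 5 under siAPEX1. In CPM this was 11.1 ± 1.96 against 4.53 ± 0.461 (SD, n = 4 each), with no overlap of the groups. Its log2 fold change was −1.30 (SE 0.300, 95% interval −1.90 to −0.70, adjusted p = 0.000540 in edgeR), and 2.94% of the genes tested had a lower one. The lncRNA gene ENSG00000268509 on the opposite strand shares 631 exonic bases with EDEM1, whose reads cannot be told apart where the counting did not use strand, and had at most 1 count in each library.

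The membrane complex of ERAD was next. HERPUD1 (ENSG00000051108, chromosome 16 from 56932142 to 56944864, plus strand) stood at 64.9, 50.4, 64.0 and 48.1 CPM in siCTRL and at 40.3, 37.3, 33.9 and 41.3 CPM under siAPEX1. The groups did not overlap, and the fold change was 0.669 (log2 −0.58, SE 0.133, 95% interval −0.85 to −0.31, adjusted p = 0.000493 in edgeR). HERPUD1 is a short-lived membrane protein with a ubiquitin-like domain that joins the SYVN1 complex.

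Promoters of the members were searched for the elements through which ATF6 and XBP1 act, in RefSeq windows (GRCh38.p14) from 250 bases before to 50 after each start. The ER stress response element (ERSE) was taken as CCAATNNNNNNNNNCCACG, ERSE-II as ATTGGNCCACG and the unfolded protein response element (UPRE) as TGACGTGG, each on both strands and matched exactly. Of the 10 genes, 9 had a window, and 2 of them held an ERSE or ERSE-II, HERPUD1 and XBP1. Among the 35116 windows of all genes 0.131% held one, which is a share of windows and not of genes. Elements and genes alike were picked as known parts of this response, so the matches are no measure of enrichment. No member window held the UPRE, which 0.729% of all windows held. Both matches are shown because they set 2 members with like elements but unlike values side by side, with the match in capitals. XBP1 had 2 windows, of which 1 held the match, from 52 to 34 bases before its start. The match of HERPUD1 lay from 117 to 107 bases before its start. The HERPUD1 stretch is chr16:56932010-56932050 on the plus strand, upstream of the GENCODE gene, and the XBP1 stretch is chr22:28800588-28800636 on the minus strand, of which 10 bases lie inside the GENCODE gene.
HERPUD1: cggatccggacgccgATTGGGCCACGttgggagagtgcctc
XBP1: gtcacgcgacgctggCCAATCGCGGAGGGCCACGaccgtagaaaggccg
HERPUD1 fell and XBP1 did not pass the test. A match is a description of these letters, not a site shown to be bound, and its absence says only that the letters are not in the window.

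SEL1L (ENSG00000071537, chromosome 14 from 81471547 to 81533853, minus strand), which stabilises SYVN1 and links it to proteins of the lumen, stood at 55.3, 66.3, 57.0 and 65.3 CPM against 51.9, 40.6, 33.9 and 46.1 CPM. The groups did not overlap, although siAPEX1 replicate 1 came close to the lowest siCTRL library. The fold change of SEL1L was 0.704 (log2 −0.51, SE 0.129, 95% interval −0.76 to −0.25, adjusted p = 0.00163 in edgeR).

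DERL1 (ENSG00000136986, chromosome 8 from 123013170 to 123042302, minus strand), a derlin of the channel through which substrates leave the reticulum, had 26, 23, 24 and 19 counts against 6, 9, 6 and 8. All 4 libraries labelled siAPEX1 were lower, at 5.73 ± 1.35 against 11.5 ± 1.11 CPM (SD, n = 4 each). The log2 fold change of DERL1 was −1.0 (SE 0.280, 95% interval −1.56 to −0.44, adjusted p = 0.00415 in edgeR). Exons of TBC1D31 on the opposite strand share 333 bases with DERL1, and TBC1D31 had 2 to 7 counts in the siCTRL libraries and 4 to 10 under siAPEX1.

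SYVN1 (ENSG00000162298, chromosome 11 from 65121780 to 65134532, minus strand), the ubiquitin ligase itself, stood at 18.1, 12.1, 14.8 and 14.9 CPM against 8.23, 11.4, 12.3 and 11.9 CPM. The groups overlapped by 1 library on each side. The log2 fold change of SYVN1 was −0.44 (SE 0.229, adjusted p = 0.138 in edgeR), and its 95% interval from −0.90 to 0.02 includes the values of HERPUD1 and SEL1L. SYVN1 shares 130 exonic bases with FAU on its own strand and 356 with MRPL49 on the other. FAU had 129 to 172 counts in siCTRL and 72 to 97 under siAPEX1. The level of SYVN1 is uncertain to the extent that reads fell on the shared bases. With library size only SYVN1 was called lower, at −0.78 with an adjusted p of 0.00391 in edgeR.

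**Figure D2:**
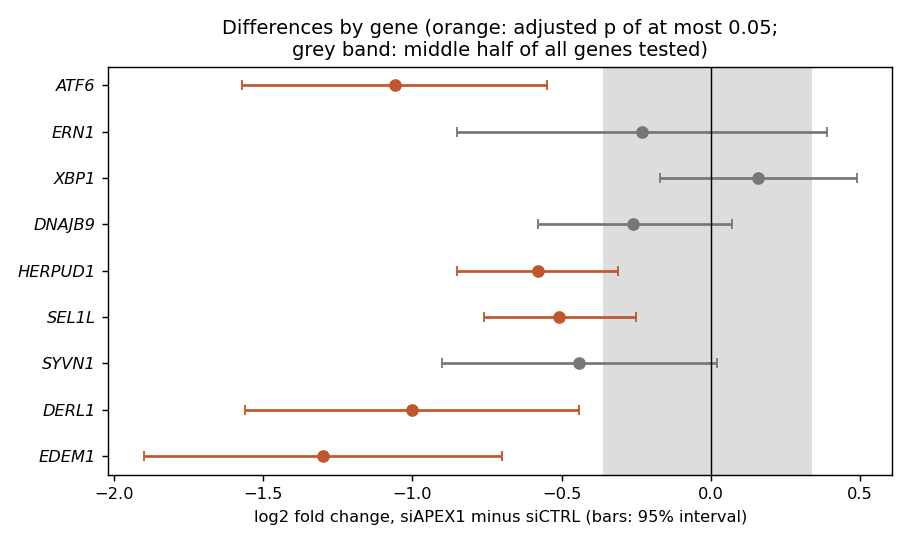
Log2 fold change, siAPEX1 minus siCTRL, of the 9 genes tested, with 95% intervals from edgeR's quasi-likelihood fit. Orange marks an adjusted p of at most 0.05, and the grey band, from −0.36 to 0.34, holds the middle 50% of all genes tested. EDEM1, ATF6 and DERL1 lie lowest, from −1.30 to −1.0, and XBP1 is the one gene above 0.

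With a log2 fold change of at most −1 asked for as well, one of the thresholds the study states, ATF6, EDEM1 and DERL1 were called, and 5.68% of all genes tested were called lower and 3.60% higher by that rule. DERL1 stood at the threshold itself.

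The levels of different genes were compared per kilobase of the canonical transcript of GENCODE 44. In the siCTRL libraries HERPUD1 was highest, at 19.9 ± 3.1 CPM per kilobase (SD, n = 4), followed by XBP1 at 13.8 ± 1.46 and DNAJB9 at 12.6 ± 1.33, and the last pair overlapped. SEL1L at 7.7, SYVN1 at 4.93 and DERL1 at 3.56 CPM per kilobase came next, with overlap between SYVN1 and DERL1. The sensors were at the low end, with ATF6 at 2.23, EIF2AK3 at 1.03 and ERN1 at 0.961 CPM per kilobase. ATF6 overlapped with EDEM1 (1.82) and EIF2AK3 with ERN1. In the libraries labelled siAPEX1 the order of the top pair turned, to XBP1 at 15.5 ± 2.85 and HERPUD1 at 13.4 ± 1.17 CPM per kilobase, whose ranges overlapped. EDEM1 came last there, at 0.741 CPM per kilobase, in a range that overlapped those of ERN1 and ATF6. It was not last by the length of all annotated exons. With that length DNAJB9 ranked first in both groups, so the order at the top depends on the length used.

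Ratios of counts within a library do not depend on the scaling, and 13 of them were compared after the first values were seen. The counts of ATF6 over those of XBP1 had log2 ratios of −0.84, −0.72, −0.81 and 0.04 in the siCTRL libraries and of −1.16, −1.92, −1.39 and −3.14 under siAPEX1. All 4 libraries labelled siAPEX1 were lower, by 1.32 in the mean. The ratios of HERPUD1, EDEM1 and DERL1 to XBP1 were also lower without overlap, with mean differences of −0.72, −1.45 and −1.18. Each of these 4 gave the smallest p the design allows (two-sided exact permutation test, p = 0.0286), which became 0.0619 after Benjamini-Hochberg adjustment over the 13 ratios.

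The ratios of SEL1L, SYVN1, DNAJB9 and ERN1 to XBP1 differed by −0.67, −0.61, −0.43 and −0.41 with overlapping groups (adjusted p from 0.106 to 0.186, exact permutation test). That of EIF2AK3 to XBP1 differed by 0.07 (adjusted p = 0.886, exact permutation test). None of the 13 passed the adjustment, which no single ratio could have passed alone, given the smallest p this test allows.

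**Figure D3:**
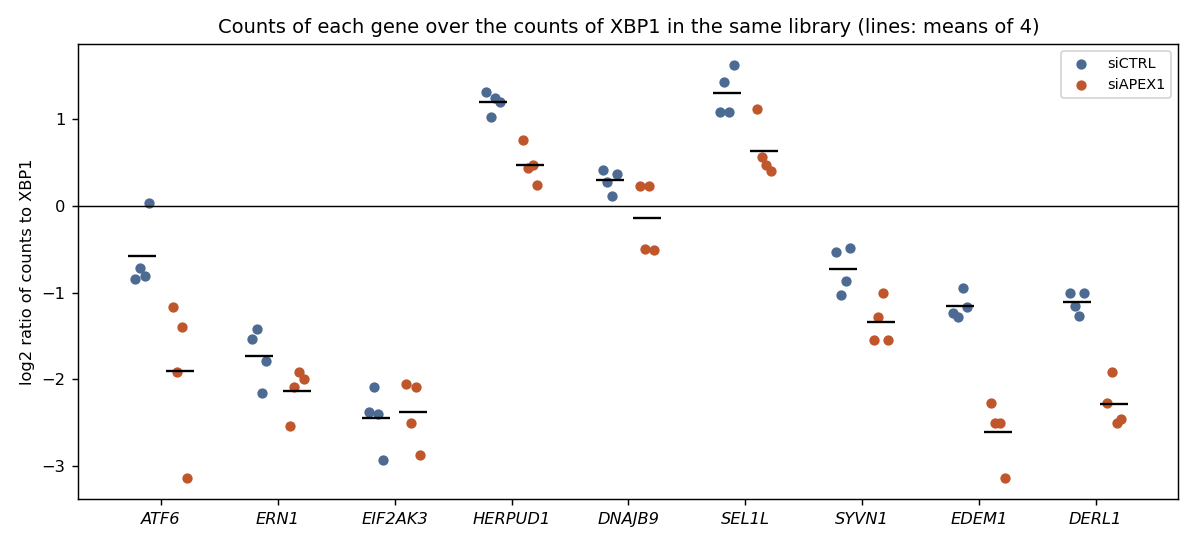
Log2 ratio of the counts of 9 genes to the counts of XBP1 in the same library (y axis), for the 4 siCTRL and 4 siAPEX1 libraries, with lines at the means. The groups are apart for ATF6, HERPUD1, EDEM1 and DERL1, with differences between −1.45 and −0.72.

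The 2 genes best known as XBP1 outputs were then set against HERPUD1 and SEL1L, which the ATF6 list holds. For DNAJB9 over HERPUD1 the groups overlapped, with log2 means of −0.90 ± 0.166 and −0.61 ± 0.303 (SD, n = 4 each, exact permutation p = 0.200). Against SEL1L it went from −1.01 to −0.77 (exact permutation p = 0.371). EDEM1, the other XBP1 output, was lower against HERPUD1, from −2.35 ± 0.147 to −3.08 ± 0.203, and against SEL1L, from −2.46 to −3.24 (exact permutation p = 0.0286 and adjusted p = 0.0619 for each). The ratio of EDEM1 to DNAJB9 was not tested itself.

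Lists of genes known as targets of each branch, and of further ERAD genes, gave the wider setting. The lists and members were chosen with earlier results of these data known, so their counts are read beside the 15.8% of all genes called lower. Of 13 ATF6 target genes, all 13 were tested, and 12 fell, the exception being XBP1, with a median log2 fold change of −1.17 against 0.00 over all genes. Leaving out HERPUD1, SEL1L and XBP1, all 10 others fell, between −2.19 and −0.95. The falls were deepest for HYOU1, a large chaperone of the lumen, at 65.9 ± 6.24 against 14.5 ± 4.34 CPM (SD, n = 4 each; log2 −2.19, SE 0.162, adjusted p = 2.89e-16 in edgeR), and for CRELD2 and PDIA4, at −2.08 and −1.92. HSP90B1 (GRP94), CALR (calreticulin) and HSPA5 (BiP), the most abundant ones, had log2 fold changes of −1.17, −1.17 and −1.07. ERSE or ERSE-II matches were found in the windows of 9 of the 13, XBP1 and HERPUD1 included, which is again no measure of enrichment. HERPUD1 and SEL1L thus had the smallest falls among the list's called genes.

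Of 16 XBP1 target genes, 14 were tested and 6 fell, with a median of −0.44, and none was higher at an unadjusted p under 0.05 or in DESeq2. EDEM1 and ARFGAP3 (21, 22, 26 and 13 counts against 8, 6, 9 and 5) reached the filter in all 4 libraries of siCTRL but not in all 4 of siAPEX1. They entered the count through the group in which they were higher, so it is no support on its own. That held for CRELD2 in the ATF6 list as well. With library size only 13 of the 14 XBP1 target genes were called lower, beside 12 of the 13 ATF6 target genes, so the contrast between the lists in called genes depends on the scaling. That scaling called 1959 of all 5368 genes tested lower, so its counts are not read beside the 15.8%. DNAJC10 and DNAJC3, cochaperones of BiP in the lumen, fell, with log2 fold changes of −1.11 and −1.06 (SE 0.157 and 0.162, adjusted p = 8.64e-08 and 5.15e-07 in edgeR). SSR3 and SSR1, of the translocon-associated complex, stood at −0.71 and −0.45, and ARFGAP3 and EDEM1 were the other called genes. SSR1 lost its call in DESeq2 (adjusted p = 0.0688), without siCTRL replicate 2 (0.0580) and without siAPEX1 replicate 3 (0.0609). ARFGAP3, at −0.89, lost its call in DESeq2 (adjusted p = 0.0974), in the thinned libraries (0.167), and without siCTRL replicate 3 (0.0602), siAPEX1 replicate 2 (0.0536) or siAPEX1 replicate 4 (0.0805). The genes of vesicle coats SEC24D, SEC31A and SEC23B, the translocon gene SEC61B and SERP1 had log2 fold changes from −0.33 to −0.09 and were not called, nor were SEC61A1 at −0.42 and HSPA13 at −0.60. Of its 15 genes with a promoter window, 1 held an ERSE (SERP1) and 2 the UPRE, against 1 UPRE among the 13 ATF6 target genes. SRPRB, below the filter, had 13, 11, 11 and 9 counts against 2, 1, 4 and 0.

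Summed over each list, XBP1 target genes had 425 ± 13.8 CPM in siCTRL and 301 ± 24.6 under siAPEX1, and ATF6 target genes 2015 ± 55.4 and 901 ± 84.3 CPM (SD, n = 4 each). The log2 ratio of the first sum to the second was −2.19, −2.20, −2.28 and −2.32 in the siCTRL libraries and −1.51, −1.66, −1.44 and −1.71 under siAPEX1. The groups did not overlap, and the means differed by 0.66. Most of the ATF6 sum came from HSP90B1, HSPA5, CALR and PDIA4, with siCTRL means of 780, 309, 247 and 184 CPM. The ratio thus follows these genes more than the rest of the list. No test was made of this ratio, since the lists were not chosen independently of the data.

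**Figure D4:**
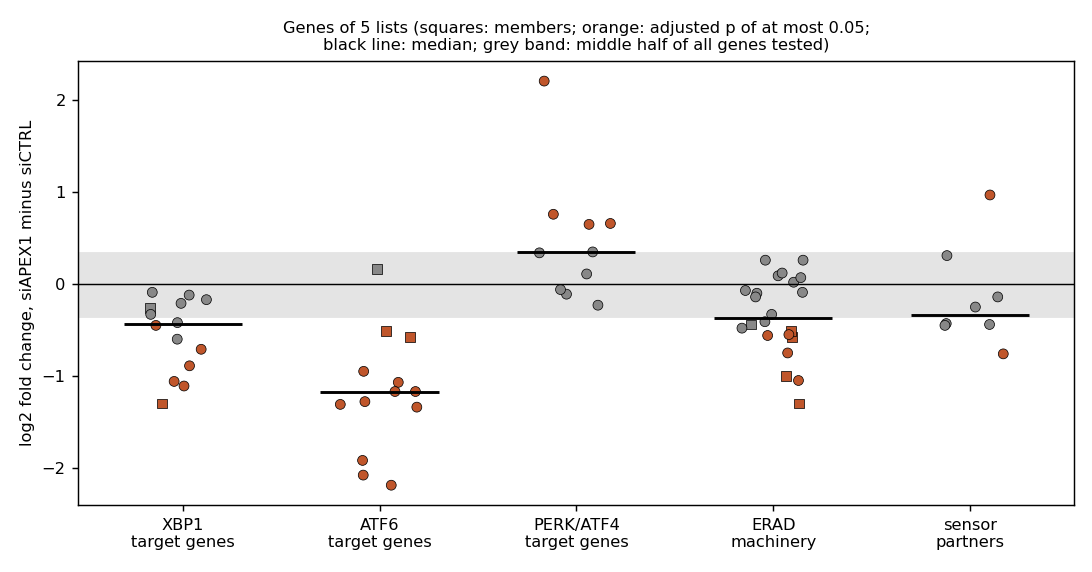
Log2 fold change, siAPEX1 minus siCTRL, of the genes tested in 5 lists, with a black line at each median. Squares mark the followed genes that these lists hold, which leaves out ATF6, ERN1 and EIF2AK3. Orange marks an adjusted p of at most 0.05, and the grey band holds the middle 50% of all genes tested. ATF6 target genes lie lowest, with a median of −1.17, and PERK/ATF4 target genes highest, with a median of 0.34.

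The next list was that of PERK and ATF4. Of 14 target genes of PERK and ATF4, 10 were tested, 4 rose and none fell at an unadjusted p under 0.05 or in DESeq2, with a median of 0.34. Of all genes tested, 15.9% rose. SESN2, a stress-induced inhibitor of mTORC1 that is also a p53 target, went from 2.52 ± 0.836 to 11.7 ± 3.43 CPM (SD, n = 4 each; log2 2.21, SE 0.344, adjusted p = 7.77e-07 in edgeR). It passed the filter through the siAPEX1 libraries alone, with 3 to 7 counts in siCTRL and 10 to 20 under siAPEX1, so it entered the count through the group in which it was higher. CEBPB, DDIT4 and PPP1R15A, the last a phosphatase subunit that reverses phosphorylation of eIF2α, rose by 0.76, 0.66 and 0.65. ATF4 itself, at −0.23, DDIT3 (CHOP), at 0.34, and TRIB3, at −0.11, were not called. With library size only PPP1R15A lost its call, at 0.31 (adjusted p = 0.145), and ATF4, TRIB3 and SLC7A11 were called lower. With the filter lowered to 1 count, with thinned libraries, or without siCTRL replicate 1 or siAPEX1 replicate 1, 2 or 4, PSAT1, a serine synthesis gene below the filter otherwise, was called lower, at −1.36 to −1.01. VLDLR, also below the filter, had 13, 12, 12 and 8 counts against 4, 1, 5 and 3, without overlap in CPM. It was not called in any setting.

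The 36 genes of the ERAD machinery, 5 of the followed genes among them, had 22 members above the filter, of which 8 fell and none rose (none at an unadjusted p under 0.05 in edgeR, and none in DESeq2), with a median of −0.37. Under library size only 14 were called lower, SYVN1, SELENOS and UBXN4 among them, beside 1959 of all 5368 genes tested. The called genes besides HERPUD1, SEL1L, DERL1 and EDEM1 were OS9, ERLEC1, DERL2 and VCP. DERL1 and EDEM1 entered this count through the siCTRL libraries, in which they were higher, so the count is no support on its own. OS9 and ERLEC1 are lectins of the lumen that bring glycoproteins to SEL1L, and stood at −1.05 (SE 0.179, adjusted p = 4.74e-06 in edgeR) and −0.56 (SE 0.160, adjusted p = 0.00503). VCP, the ATPase that pulls substrates out of the membrane, stood at −0.55 and DERL2 at −0.75, and DERL2 lost its call in DESeq2 (adjusted p = 0.0678). Without siAPEX1 replicate 2 the adjusted p of ERLEC1 was 0.0639 and that of DERL2 0.0586. Apart from the followed genes, 17 were tested, with 4 called and a median of −0.10. The ligase gene MARCHF6, the VCP cofactors UFD1 and NPLOC4 and the membrane genes SELENOS and UBXN4 had values from −0.14 to 0.26 and were not called.

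Of 15 partners of the sensors, 8 were tested and 2 called. Over all genes tested 31.8% were called in either direction, so this count does not set the partners apart. EIF2S1, which encodes eIF2α, rose by 0.97 (SE 0.256, adjusted p = 0.00226 in edgeR). It reached the filter in all 4 libraries of siAPEX1 but not in all 4 of siCTRL. It thus entered the count through the group in which it was higher. EIF2AK2, the gene of the kinase PKR, fell to 22.6 ± 3.43 from 38.4 ± 6.10 CPM (SD, n = 4 each). The proteases that cut ATF6, encoded by MBTPS1 and MBTPS2, had log2 fold changes of −0.43 and −0.45 and RTCB, the ligase that joins the XBP1 exons, −0.44, with none of them called. Scaled by library size only, these 3 and EIF2AK1 were called lower too, which made 5, beside 1959 of all 5368 genes tested. MBTPS2 and RTCB reached the filter in all 4 libraries of siCTRL but not in all 4 of siAPEX1. Among 7 known substrates of RNA decay by IRE1 only HGSNAT had the counts to be tested, at 0.10, and it was not called. COL6A1, below the filter, had 5.53 ± 1.55 CPM in siCTRL and 2.16 ± 0.408 under siAPEX1 (SD, n = 4 each) without overlap. It was called lower, at −1.50 to −1.38, with the filter lowered to 1 count and without siCTRL replicate 4 or siAPEX1 replicate 1 or 2.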

How the data were processed

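RNA-seq counts of 8 A549 libraries were used, 4 for each label. The authors trimmed the reads, aligned them to GRCh38 with STAR (2.5.3a in the submitters' processing notes) and deposited raw counts per Ensembl gene. The Ensembl release and the strand setting are not given in the sources used here. Replicates were numbered by the labels. GENCODE 44 named 57532 of 58302 genes. edgeR 4.0.16 in R 4.3.3 was used with filterByExpr (minimum count 10, minimum total 15), TMM factors and a robust quasi-likelihood fit, and DESeq2 1.42.0 as an alternative. The SE is the log2 fold change over the square root of F. Depth was 1348386 to 1949886 counts, and the common coefficient of variation 0.0832. The fit was tested on simulated data. Members and lists were chosen with earlier results of these data known. Named genes are the 10 members and up to 4 called genes of smallest adjusted p per list, and the others named were chosen after their values were seen, as were the ratios and promoter searches. Same-numbered libraries did not deviate together, and no 2 libraries agreed within sampling noise.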

Additional observations from a re-analysis of the deposited data

Results flagged for a closer look

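In ATF6, siCTRL replicate 4 stood apart at 21.6 CPM, with the other siCTRL libraries between 14.6 and 15.3 CPM. Its gap was 0.898 of the range of the group, above the critical value of Dixon's test for 4 values. Of 56 groups looked at, 1 was set apart in this way, and about 1 in 20 would be by chance. Without this library the log2 fold change of ATF6 was −0.92 (adjusted p = 0.00537 in edgeR).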

How the results depend on the processing

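The number of members called lower was 5 and the number called higher 0. Each library left out in turn gave 5 and 0, the same 5 genes each time, and so did RLE, upper-quartile and protein-coding TMM factors, DESeq2, all genes with at least 1 count, the thinned libraries and the replicate block. With library size only 7 were called lower, the 5 plus DNAJB9 and SYVN1, and the sign of XBP1 was reversed (−0.18). With at least 10 counts asked for in every library 5 members were tested and 2 called, since that filter leaves out ATF6, DERL1 and EDEM1 (and ERN1 and EIF2AK3). With a log2 fold change of at least 1 or of at least 0.75 asked for as well, 3 were called. Over all genes, 849 were called lower and 856 higher, library size only gave 1959 and 339, and DESeq2 gave 541 lower. Leaving out 1 library gave 720 to 834 lower and 774 to 850 higher. The mean difference of the log2 ratio of XBP1 to ATF6 target genes was 0.62 to 0.71 with each library left out. Correlations of same-numbered libraries lay between −0.04 and 0.00, so the numbers are not treated as pairs, and the replicate block called 791 genes lower and 808 higher. Library size only moved the median over the genes tested from 0.00 to −0.34 and the lower share of calls from 49.8% to 85.2%. Depth limits ERN1, EIF2AK3, EDEM1, DERL1 and ATF6 most, each with under 10 counts in at least 1 library.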
